A study of Mus musculus with 8 samples.

Results

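Genes for the subunits of oxidative phosphorylation (OXPHOS) were followed in RNA-seq libraries of sorted mouse bone marrow cells. Members were chosen by gene symbol alone (names beginning with Nduf and then a, b, c, s or v, Sdha to Sdhd, names beginning with Uqcr, Cox4 to Cox8 or Atp5), which gave 91 of the 29955 gene names in the files. Of these, 42 were assigned to complex I, 4 to complex II, 9 to complex III, 19 to complex IV and 17 to complex V. The symbol rule also takes in 8 genes whose products are not subunits, among them Ndufaf1, Ndufaf2, Ndufaf3 and Ndufaf4 (complex I assembly factors), Cox7a2l (a respirasome assembly factor) and Cox4nb (a subunit of a membrane protein insertase). There were 4 groups of 2 libraries each, WT LSK, Ripk3-KO LSK, WT LK and Ripk3-KO LK. LSK cells were sorted as Lin-, Sca1+ and Kit+ and hold the hematopoietic stem and progenitor cells, and LK cells, labelled Lin- and Kit+ and described by the study as also lacking Sca1, hold the myeloid progenitors. All mice had one strain background, given in the labels as CD57BL6/J, and the knockout mice lacked Ripk3, a kinase of necroptosis signaling. The study describes the mice as having been given fractionated X-ray irradiation before collection, whereas the labels state that no treatment was given. The labels give no age and do not say whether replicates are separate mice, so the p-values below measure the spread between libraries only.

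Oxidative phosphorylation is carried out by 5 complexes of the inner mitochondrial membrane. Complex I (NADH dehydrogenase) and complex II (succinate dehydrogenase) pass electrons to ubiquinone, complex III (cytochrome bc1) hands them to cytochrome c, complex IV (cytochrome c oxidase) passes them to oxygen, and complex V (ATP synthase) uses the proton gradient so formed to make ATP. Most subunits are encoded in the nucleus and a small set in mitochondrial DNA, so the complexes are assembled from the products of both genomes. Hematopoietic stem cells are known for a low rate of oxidative phosphorylation, which goes up as they differentiate. Ripk3 has been linked to the pyruvate dehydrogenase complex, the enzyme that feeds pyruvate into the tricarboxylic acid (TCA) cycle. The study describes that link as phosphorylation of an enzyme subunit, which transcript levels do not measure. It also reports more oxygen consumption in stem cells of irradiated WT than of irradiated Ripk3-knockout mice, which RNA-seq does not measure either.

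The deposited values are read counts per gene scaled to the size of the library (CPM with TMM factors), and are called signal here. Between 9782166 and 16280811 reads per library were recovered from them, and the members held between 2.07% and 2.49% of the reads of a library. Ripk3 was at a signal of 162, 168, 144 and 150 in the WT libraries, and at 3.38 and 1.08 in Ripk3-KO LSK and 16.2 and 10.6 in Ripk3-KO LK. Xist was at 108 to 413 in every WT library and at most 1.27 in every Ripk3-KO library, whereas Eif2s3y, on the Y chromosome, had no reads in the WT libraries and a signal of 47.0 to 98.8 in the Ripk3-KO libraries. Genotype and sex of the mice therefore cannot be told apart in any comparison of genotypes. The sorted populations carried their markers. Ly6a, the gene of Sca1, was at 141 to 237 in LSK and at 0.124 to 4.12 in LK, and all 6 granulocyte-monocyte progenitor markers were higher in LK of both genotypes. Markers of mature neutrophil granules moved with genotype, as 5 of 5 were higher in Ripk3-KO LSK and 4 of 5 in Ripk3-KO LK (limma, adjusted p under 0.05), with a summed level of 576 to 625 CPM in WT LSK and 1907 to 2240 CPM in Ripk3-KO LSK, and of 830 to 850 and 1812 to 1821 CPM in WT and Ripk3-KO LK. Other marker lists also differed in LSK. Stem-progenitor markers summed to 2138 to 2171 CPM in WT LSK and 2880 to 3260 CPM in Ripk3-KO LSK, with 7 of 8 higher and 1 called. Granulocyte-monocyte progenitor markers summed to 6869 to 7759 and 5011 to 6398 CPM, with 5 of 6 lower and 0 called. Of 6 erythroid markers 1 was called lower in Ripk3-KO LSK. In bulk libraries fewer cells of a type and less RNA per cell cannot be told apart.

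Levels were compared between members as CPM per kb of transcript, with CPM scaled over all 8 libraries, and those above 0 in WT LSK ran from 0.600 for Uqcr upwards. The highest was Atp5b, the catalytic beta subunit of the F1 head of ATP synthase, at 1087 CPM per kb in WT LSK and 1942 in WT LK. Next in WT LSK came Ndufa4, an electron transport subunit first assigned to complex I and later found with complex IV, at 815, and then Cox8a and Cox4i1, structural subunits of complex IV, at 810 and 783. The order of these 3 was not resolved, since the libraries of a group differed by more than the distance between them. The core subunits of complex I were lower, with Ndufs8 and Ndufs7, which carry iron-sulfur clusters, at 386 and 367, Ndufv1, which binds NADH, at 136 and Ndufs1 at 31.5 CPM per kb in WT LSK. In complex II, Sdhd and Sdhb stood at 276 and 262, Sdha, the flavoprotein that oxidizes succinate, at 146 and Sdhc at 43.7. Complex III ran from 84.8 for Uqcrc2 to 465 for Uqcr10, leaving out Uqcr and Uqcr11, which are names of a single gene whose reads were near 0 under both.

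**Figure D1:**
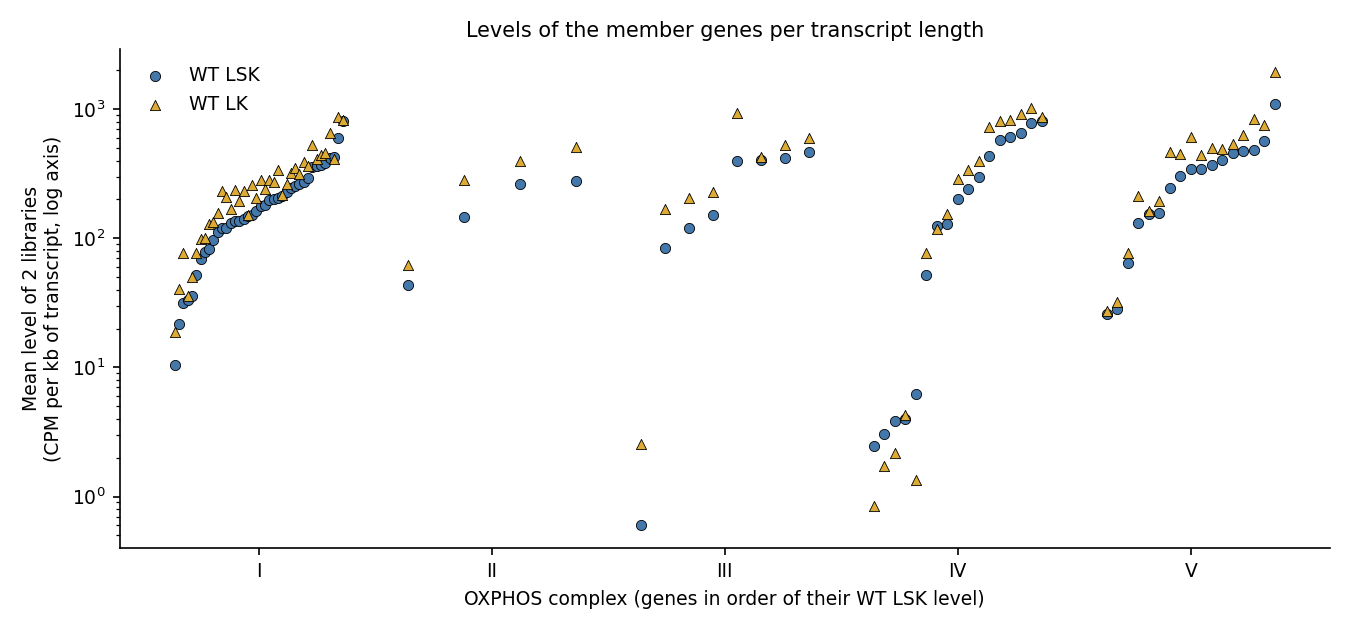
Mean level of each member (CPM per kb of transcript, log axis) in WT LSK (circles) and WT LK (triangles), arranged by complex and, within a complex, by the level in WT LSK. Atp5b is the highest point in both populations, at 1087 and 1942, and Cox6a2, Cox8c, Cox7a1, Cox4i2 and Cox7b2 form a separate low group at 2.46 to 6.20 in WT LSK, with the isoform Cox6b2 above it at 52.3. Levels of 0 are not drawn.

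Most of the tissue-restricted isoforms were close to absent. Cox6b2, the testis form of Cox6b, was not, with a signal of 30.9 to 52.7 over the 8 libraries. Cox8b, the heart and muscle form of Cox8, had a signal above 0 in only 1 library, at 0.0804, and Ndufa4l2, a hypoxia-induced relative of Ndufa4, also in only 1, at 0.0978. The muscle forms Cox7a1 and Cox6a2 and the testis forms Cox7b2 and Cox8c reached at most 2.28, 9.73, 4.97 and 2.78 in any library, and Cox4i2, the lung form of Cox4 that responds to oxygen, lay between 1.36 and 4.98. The general forms ran far above them, with Cox4i1 at 577 to 738, Cox6a1 at 337 to 497 and Cox7a2 at 161 to 249. Cox4nb and Ndufaf2 had no reads in any library, which allows at most 0.186 to 0.311 signal per library (3 reads, counting error only). This limit holds for reads counted under these names and is not a limit on expression of the genes. Cox4nb is named Emc8 in the annotation used here, and 5590 of the gene names had no reads in any library. Only 1 of the 13 genes of mitochondrial DNA, mt-Nd4, was among the gene names analysed here.

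The c subunit, which forms the rotating ring of ATP synthase, is encoded by 3 nuclear genes. Its coding ends are shown because Atp5g1 was the only member called between genotypes by limma. Atp5g1, Atp5g2 and Atp5g3 encode the same mature protein behind different import signals, and their coding ends are similar in DNA. The last 120 coding bases of each (GENCODE transcripts, GRCm38) are given with capitals where a base differs from Atp5g1.
Atp5g1: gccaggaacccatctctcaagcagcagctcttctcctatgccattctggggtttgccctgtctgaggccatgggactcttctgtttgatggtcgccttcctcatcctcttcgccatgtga
Atp5g2: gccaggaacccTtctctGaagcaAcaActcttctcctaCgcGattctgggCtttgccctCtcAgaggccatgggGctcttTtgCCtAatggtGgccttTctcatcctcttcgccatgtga
Atp5g3: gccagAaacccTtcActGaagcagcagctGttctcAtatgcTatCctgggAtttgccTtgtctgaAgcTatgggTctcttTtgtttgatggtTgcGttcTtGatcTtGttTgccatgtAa
Within these bases Atp5g2 differed from Atp5g1 at 16 positions and Atp5g3 at 22, so that identity was 86.7% and 81.7%. Over the longer aligned stretches of the transcripts, identity to Atp5g1 was 84.3% over 255 bases for Atp5g2 and 78.7% over 268 bases for Atp5g3. Atp5g1 and Atp5g2 each had 4 pseudogene transcripts that aligned over 200 bases or more at 90% identity or higher, and Atp5g3 had 0, so reads of the first pair can be shared with other loci.

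In LSK cells, Atp5g1 was the only member that passed the test between genotypes. In WT LSK its signal was 196 and 271 and in Ripk3-KO LSK it was 93.6 and 82.9, and so both knockout libraries lay below both WT libraries. It fell by 1.38 ± 0.20 (SE) on the log2 scale, to 0.385 of the WT level (limma, adjusted p = 0.000315). Atp5g2 was lower by the same rule of no overlap, at 111 and 146 in WT against 66.2 and 77.8 in Ripk3-KO LSK, but did not pass (log2 fold change -0.82 ± 0.23, adjusted p = 0.0694). Atp5g3 was at 392 and 529 in WT against 467 and 515 in Ripk3-KO LSK, where the groups overlap (log2 fold change 0.11 ± 0.17, adjusted p = 0.778). As a share of the reads of the 3 genes, which no library factor changes, Atp5g1 made up 28.0% and 28.6% in WT LSK and 14.9% and 12.3% in Ripk3-KO LSK, while Atp5g3 made up 56.1% and 56.0% against 74.5% and 76.2%. The summed signal of the 3 genes was 699 and 946 in WT LSK and 627 and 676 in Ripk3-KO LSK. With 2 libraries against 2, an exact permutation test of such a share cannot go below p = 0.333.

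**Figure D2:**
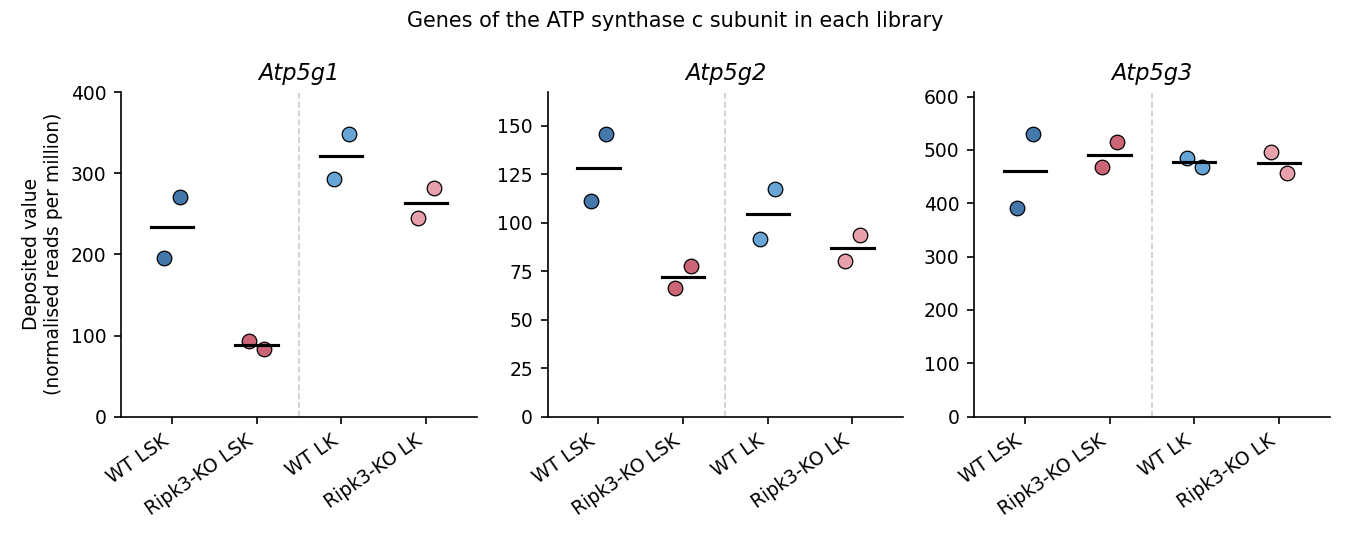
Signal (deposited value, normalised CPM) of the 3 c-subunit genes in each library, with a bar at the mean of each group of 2. Atp5g1 falls from 196 and 271 in WT LSK to 93.6 and 82.9 in Ripk3-KO LSK, whereas Atp5g3 overlaps between genotypes. The dashed line separates LSK and LK libraries, which the authors scaled separately.

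Genes with near-identical pseudogenes were called lower in Ripk3-KO LSK more often than other genes, which was measured because Atp5g1 is one of them. Among all protein-coding genes tested, 64 of 229 with 4 or more such pseudogenes were called lower (27.9%), compared with 42 of 1513 with 1 to 3 (2.78%) and 81 of 12950 with none (0.625%), and the median log2 fold changes were -0.56, -0.08 and 0.02. Gapdh, the glycolytic enzyme, with 172 such pseudogenes, was at 230 and 232 in WT LSK against 90.3 and 70.4 in Ripk3-KO LSK (adjusted p = 8.86e-05). Cycs, the cytochrome c that carries electrons between complexes III and IV, with 9, was at 150 and 164 against 66.6 and 62.3 (log2 fold change -1.27, adjusted p = 0.000552). Of the members, the 6 with 4 or more were lower in Ripk3-KO LSK in 6 of 6 cases with a median of -0.55, and of the 53 tested with none, 20 were lower and 0 were called. In LK the same class of genes was called lower in 1 of 217 cases. What part shared reads have in the difference of Atp5g1 was not tested. Whether the Ripk3-KO LSK libraries were aligned and counted with the same settings as the others is not given in the sources used here, and its part in the fold change of Atp5g1 was not tested either.

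As a group the members lay close to all genes in the genotype comparison in LSK. Of 84 members tested 1 was called, against 2.16% of all 16817 genes tested in either direction and 1.27% called lower in Ripk3-KO. The median log2 fold change was 0.03 for the members and -0.01 for all genes, with 44 members higher and 40 lower. Both knockout libraries lay below both WT libraries for 17 of the 84 and above them for 14, where the shares of all genes were 23.2% and 21.4%. The replicates themselves differed, as 70 of the 84 members were higher in replicate 2 of WT LSK than in replicate 1, with a median log2 difference of 0.25 against 0.01 over all genes. Leaving out WT LSK replicate 1 moved the members' median to -0.11, and leaving out WT LSK replicate 2 moved it to 0.09.

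By complex, the median log2 fold change in LSK was 0.07 for complex I, 0.06 for complex II, 0.03 for complex III, -0.04 for complex IV and -0.13 for complex V. Of the 6 members with 4 or more near-identical pseudogenes, Atp5g1, Atp5g2, Atp5h and Atp5l are in complex V. Their part in its median was not tested. Leaving out 1 library turned the sign for complexes I (-0.03 to 0.19), III (-0.11 to 0.22) and IV (-0.19 to 0.08). In complex II the values of the 4 genes lay between 0.04 and 0.12, with Sdhd highest (0.12, adjusted p = 0.75), Sdhc at 0.06, and Sdha at a signal of 484 and 478 in WT LSK against 508 and 491 in Ripk3-KO LSK. In complex IV, Cox5b, which binds zinc, was at 207 and 270 in WT against 158 and 141 in Ripk3-KO LSK (log2 fold change -0.66 ± 0.19, adjusted p = 0.0722), and Cox8a was at 437 and 578 against 328 and 354 (-0.56, adjusted p = 0.102). DESeq2 called 4 members lower, Atp5g1, Atp5g2, Cox5b and Cox8a, and quantile-normalised values called 3, Atp5g1, Atp5g2 and Cox5b. The complex IV genes with the most extreme fold changes, Cox6a2 at 1.44 (adjusted p = 0.269) and Cox7b2 at -0.71 (adjusted p = 0.568), had signals below 10 in every library.

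In the other direction, Ndufb6, an accessory membrane subunit of complex I, was at 35.8 and 68.0 in WT against 81.7 and 98.1 in Ripk3-KO LSK, without overlap (0.84 ± 0.29, adjusted p = 0.132). Ndufaf4, an assembly factor, was at 46.7 and 40.4 against 60.0 and 92.8 (0.77, adjusted p = 0.133). In complex III, Uqcrc2, a structural core protein that holds no redox centre, was at 198 and 168 against 269 and 221 (0.42, adjusted p = 0.228), and Uqcrb at 236 and 272 against 157 and 229 (-0.42, adjusted p = 0.303). None of these 4 passed the test. In the F1 head of ATP synthase, Atp5a1, the alpha subunit, overlapped between genotypes, at 1296 and 1431 in WT LSK against 1390 and 1318 in Ripk3-KO LSK. Atp5c1, the gamma subunit, did not overlap, at 589 and 678 against 485 and 513, and did not pass (-0.34, adjusted p = 0.245).

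**Figure D3:**
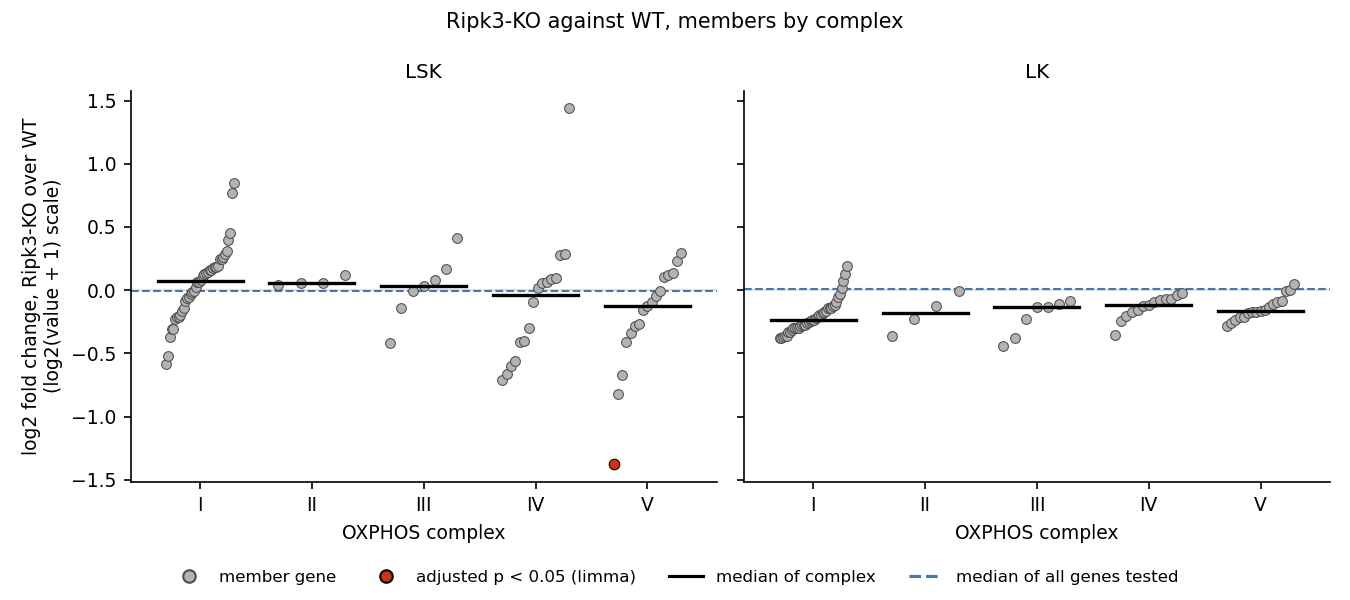
Log2 fold change of Ripk3-KO over WT for each tested member by complex, in LSK (84 members) and in LK (81 members). The single red point in LSK is Atp5g1 at -1.38, and black bars mark complex medians, which lie between -0.13 and 0.07 in LSK and between -0.24 and -0.12 in LK. The dashed line is the median of all genes tested.

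In LK cells no member passed the test, but nearly all lay slightly lower in Ripk3-KO. None of 81 members tested was called (limma, adjusted p), with 2 at an unadjusted p under 0.05, against 66 of 13949 genes called in all (0.473%). The edgeR test and DESeq2 also called 0, with 3 and 6 at an unadjusted p under 0.05. Of the 81 members, 76 were lower in Ripk3-KO LK, compared with 49.0% of all genes, and the median log2 fold change was -0.17 against 0.01. Both knockout libraries lay below both WT libraries for 51 of the 81, where 19.9% of all genes did. The members also moved together between replicates of a group. In WT LK 60 of the 81 were lower in replicate 2 than in replicate 1, with a median log2 difference of -0.13 against -0.02 over all genes. In Ripk3-KO LK 32 were lower and 49 higher, with a median of 0.03. The counts of members are therefore not counts of independent results. The medians were -0.24 for complex I, -0.18 for complex II, -0.14 for complex III, -0.12 for complex IV and -0.16 for complex V.

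The 2 members with an unadjusted p under 0.05 in LK were Uqcrc1, the other core protein of this kind in complex III, and Sdhb, the iron-sulfur subunit of succinate dehydrogenase. Uqcrc1 was at 1516 and 1202 in WT LK against 879 and 1127 in Ripk3-KO LK (-0.44 ± 0.17, adjusted p = 0.526 by limma). Sdhb was at 429 and 363 against 293 and 320 (-0.37 ± 0.17, adjusted p = 0.715 by limma). Ndufc2 and Ndufb4 in complex I (-0.38 each), Uqcrq in complex III (-0.38), Cox6a1 and Cox7a2l in complex IV (-0.35 and -0.24), Sdhc in complex II (-0.23) and Atp5g1 and Atp5g2 in complex V (-0.28 and -0.26) were the others with the largest differences in their complexes, with adjusted p of 0.764 or more. Sdha, by contrast, was at 786 and 671 against 701 and 748, where the groups overlap. The shift was -0.18 by edgeR and -0.19 by DESeq2, and smaller under 2 other treatments of the values. It was -0.10 with 64 members lower after quantile normalisation and -0.08 with 58 lower after trends on GC content and transcript length were removed. Leaving out each library in turn gave medians from -0.23 (without WT LK replicate 2) to -0.13 (without WT LK replicate 1). The erythroid markers were lower in Ripk3-KO LK in 6 of 6 cases (0 called), with a summed level of 1737 to 1927 CPM in WT LK and 1285 to 1348 CPM in Ripk3-KO LK, and neutrophil granule markers were higher, as given above. Their part in the shift was not tested.

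No member passed the test of a difference in genotype effect between LSK and LK by limma. Of 84 members 0 were called, with 5 at an unadjusted p under 0.05, against 0.358% of all 15901 genes. The largest differences (LSK effect minus LK effect) were 1.22 for Ndufb6 (adjusted p = 0.285), with 0.84 in LSK and -0.37 in LK, and -1.09 ± 0.28 for Atp5g1 (adjusted p = 0.123). In LK, Atp5g1 was at 294 and 348 in WT against 245 and 281 in Ripk3-KO. DESeq2 and the quantile-normalised values called this difference for Atp5g1 (adjusted p = 0.0132 and 0.0259), and no other member. Others with the largest values in their complexes were Ndufc2 (0.69), Sdhb (0.40), Sdhc (0.29), Uqcrc2 (0.55), Uqcrc1 (0.43), Cox6a2 (0.92), Cox7a1 (-0.61) and Atp5l (-0.56), with adjusted p between 0.407 and 0.846.

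Around the complexes, other genes of mitochondrial metabolism showed few differences between genotypes. In the pyruvate dehydrogenase list 0 of 11 genes tested were called in LSK and 0 of 10 in LK. Pdha1, of the E1 component, overlapped between genotypes at 106 and 81.4 in WT LSK against 116 and 104 in Ripk3-KO LSK, as did Dld, the E3 component, at 101 and 131 against 117 and 141, and the inhibitory kinase Pdk1 at 128 and 143 against 129 and 127. Dlat, the E2 component, had both Ripk3-KO libraries above WT, at 62.5 and 46.8 against 76.0 and 74.5 (adjusted p = 0.31), and Pdhb, also of E1, had both below, at 229 and 235 against 194 and 185 (adjusted p = 0.41). None of the 13 TCA cycle genes, 22 assembly factors or 11 regulators of mitochondrial biogenesis tested was called in either population, by limma. Among 16 electron carrier genes Cycs was called lower in LSK, and in the interaction (-1.26, adjusted p = 0.0389). Among 16 glycolysis genes Gapdh and Pgam1 were called lower in LSK, and 1 gene was called lower in the interaction. Cycs, Gapdh and Pgam1 have 9, 172 and 3 near-identical pseudogenes, and the part of shared reads in these calls was not tested. In LK, 12 of 13 TCA cycle genes, 14 of 16 electron carriers and 13 of 16 glycolysis genes were lower without any being called, with medians of -0.10, -0.17 and -0.16.

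Between populations, the members that passed the test were higher in LK than in LSK on a scale common to all libraries. LSK and LK values were compared as CPM scaled over all 8 libraries by TMM (CPM in the following values), since the deposited signal was scaled separately. In WT, 30 of 85 members tested were called and all 30 were higher in LK, against 23.9% of all 15950 genes called in either direction and 14.8% called higher. The members' median log2 fold change was 0.48 while that of all genes was -0.08, and both LK libraries lay above both LSK libraries for 65 of the 85, compared with 31.2% of all genes. This shift depended on the scaling, as the members' median was 0.42 by edgeR, 0.39 by DESeq2, 0.11 on the deposited scale (where all genes were at -0.41) and turned to -0.0045 after quantile normalisation, with 26, 27, 9 and 5 members called higher and 1, Ndufa4, called lower after quantile normalisation. Against the median of all genes under the same scaling, the members' median was higher under the first 4 of these and not after quantile normalisation. The count also rested on single libraries, being 14 without WT LSK replicate 1 and 11 without WT LK replicate 1.

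The members called higher in WT LK under each of these 5 settings were Uqcrc1, Ndufs1, Sdha, Atp5a1 and Atp5b. The edgeR setting also used TMM over all 8 libraries, so it is another test and not a separate scaling. Uqcrc1 was at 611 and 704 CPM in WT LSK and 1728 and 1357 CPM in WT LK, without overlap (log2 fold change 1.22 ± 0.17, 2.33-fold, adjusted p = 2.41e-05 by limma). Ndufs1, the large iron-sulfur subunit of complex I, rose from 91.7 and 75.8 to 210 and 201 CPM (1.29 ± 0.21, adjusted p = 0.000121). Sdha rose from 425 and 419 to 896 and 757 CPM (0.96 ± 0.16, adjusted p = 0.000122). The alpha and beta subunits of the F1 head moved together, Atp5a1 from 1137 and 1256 to 2077 and 2076 CPM (0.80) and Atp5b from 2030 and 2134 to 3763 and 3681 CPM (0.84).

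The 12 core subunits of complexes I to III were higher in WT LK in 12 of 12 cases and 8 were called, with a median of 0.59. The 46 accessory subunits tested had a median of 0.48 with 15 called. They came from complexes I to IV and took in Uqcrc1 and Uqcrc2, so these sets differ in their complexes. Within complex I the 7 core subunits had a median of 0.52 with 4 called, and the 30 accessory subunits 0.48 with 8 called. Among the core subunits Ndufv1 rose by 0.80 and Sdhd, the membrane anchor of complex II, by 0.89. By complex the medians were 0.49 (I), 0.73 (II), 0.59 (III), 0.40 (IV) and 0.40 (V), with 14 of 40, 3 of 4, 4 of 7, 4 of 17 and 5 of 17 members called. The other members named by size among those called were Uqcrc2 (0.99), Atp5o, which joins the F1 head to the stator (0.92), Ndufaf3 (0.87), Atp5g1 (0.84), Ndufaf4 (0.82), Ndufb5 (0.79), Uqcrq, Cox5a and Ndufs6 (0.77 each), Ndufb10 (0.72), Ndufb3 (0.71) and Ndufa9 (0.67). Ndufa4 overlapped between populations at 457 and 538 CPM in WT LSK and 551 and 461 CPM in WT LK (0.02, adjusted p = 0.926), and Cox7b2, with a signal of at most 4.97, was at -1.31 (adjusted p = 0.116). These directions are those of the TMM scale, on which 78 of the 85 members were higher in WT LK and 7 lower. On the deposited scale 54 were higher and 31 lower, and after quantile normalisation 39 were higher and 46 lower.

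**Figure D4:**
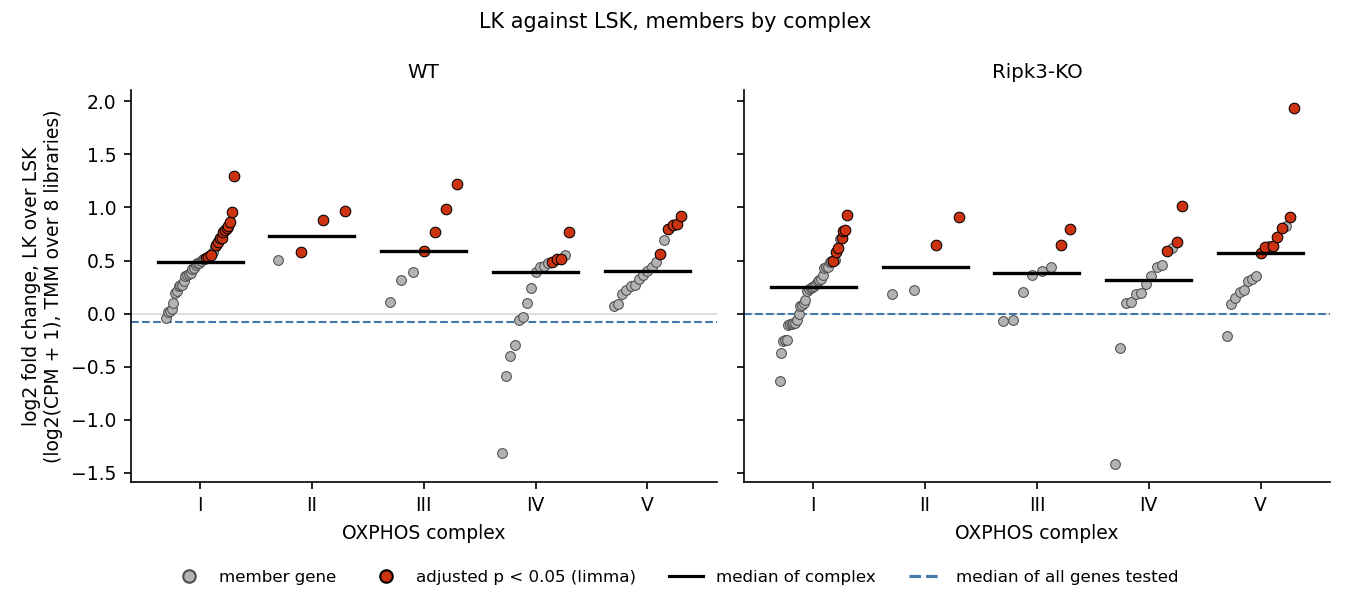
Log2 fold change of LK over LSK (log2(CPM + 1), TMM over all 8 libraries) for each tested member by complex, in WT (85 members, 30 called) and in Ripk3-KO (83 members, 21 called). Complex medians lie between 0.40 and 0.73 in WT and between 0.25 and 0.57 in Ripk3-KO, and the isolated red point near 1.93 in Ripk3-KO is Atp5g1. After quantile normalisation the medians over all members are near 0 in both genotypes.

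In Ripk3-KO, 21 of 83 members were called and all 21 were higher in LK, against 20.2% of all 15237 genes in either direction and 12.2% called higher. The members' median was 0.32 against -0.0024 for all genes, and 53 of the 83 had both LK libraries above both LSK libraries, compared with 30.1% of all genes. Here too the scaling decided the sign, since the median was 0.25 by edgeR, 0.26 by DESeq2, -0.06 on the deposited scale (all genes -0.34) and -0.00067 after quantile normalisation, with 16, 22, 4 and 6 members called higher and 5 called lower in each of the last pair. The count was 12 without Ripk3-KO LSK replicate 1, 11 without Ripk3-KO LK replicate 1 and 5 without Ripk3-KO LK replicate 2. By complex the medians were 0.25 (I), 0.44 (II), 0.38 (III), 0.32 (IV) and 0.57 (V), so that complex V was the highest here and complex II in WT. The members with 4 or more near-identical pseudogenes were Atp5g1, Atp5g2, Atp5h and Atp5l in complex V, Uqcrb in complex III and Cox7b in complex IV. Over all protein-coding genes this class had a median of 0.59 in Ripk3-KO, against -0.0074 for genes with none. Its part in the order of the complexes was not tested. The WT and Ripk3-KO comparisons use different libraries, and the difference between them is the interaction given above, in which no member was called by limma.

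Atp5g1 led this comparison. It was at 83.0 and 72.6 CPM in Ripk3-KO LSK and 278 and 323 CPM in Ripk3-KO LK (1.93 ± 0.20, 3.82-fold, adjusted p = 2.39e-07). Cox5b rose from 140 and 124 to 259 and 275 CPM (1.02, adjusted p = 0.000533), Sdha from 450 and 430 to 796 and 857 CPM (0.91, adjusted p = 0.000181) and Atp5o from 199 and 172 to 354 and 344 CPM (0.91, adjusted p = 0.000613), and these 4 genes were called higher under all 5 settings. Further called members were Ndufs1 (0.93), Atp5h (0.81), Uqcrc1 and Ndufs5 (0.79 each), Ndufab1 (0.78), Atp5b (0.73), Ndufs6 (0.71), Cox7a2 (0.67), Uqcrb and Sdhd (0.65 each), Atp5f1 (0.64), Atp5a1 (0.63), Ndufa1 (0.62), Cox5a (0.59), Ndufa10 (0.58) and Atp5c1 (0.57), all on the TMM scale. Cox6a2 was at 8.62 and 2.99 CPM in LSK against 0.937 and 1.78 CPM in LK and did not pass (-1.42, adjusted p = 0.161). Genes with 4 or more near-identical pseudogenes were called higher in Ripk3-KO LK in 109 of 222 cases, among all protein-coding genes, and in 49 of 227 cases in WT. Of the members without any such pseudogene, 10 of 52 were called in Ripk3-KO and 20 of 54 in WT, where 1330 of 11868 and 1911 of 12399 protein-coding genes without one were called higher.

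**Figure D5:**
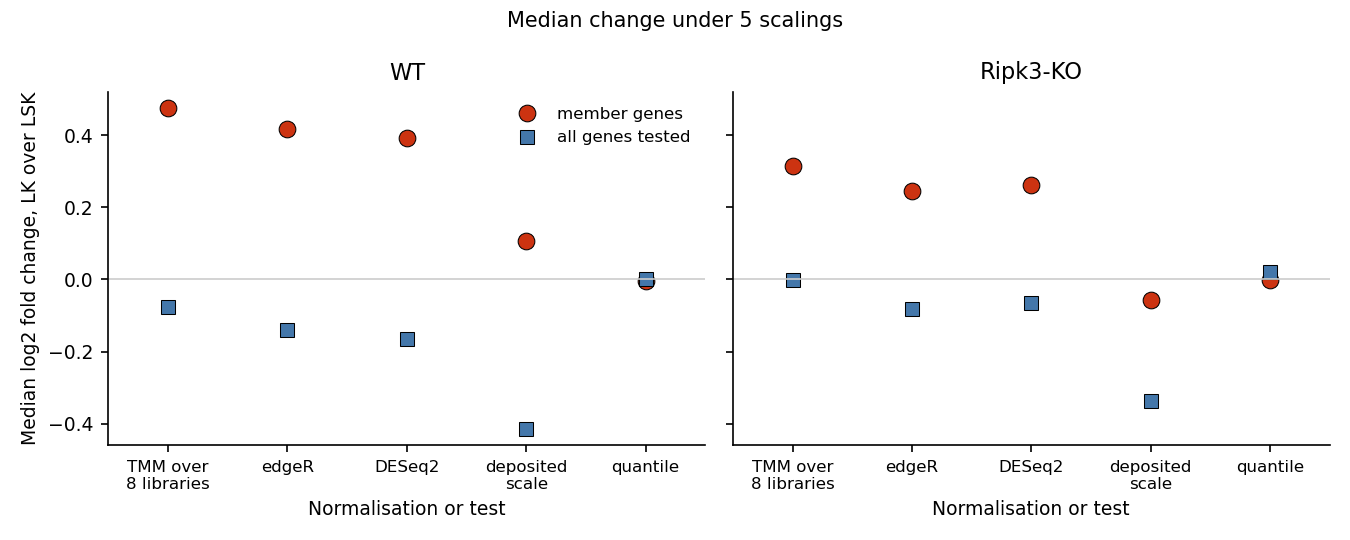
Median log2 fold change of LK over LSK for the members (circles) and for all genes tested (squares) under 5 settings of scaling or test, in WT and Ripk3-KO. Circles lie above squares by about the same distance under the first 4 settings, at 0.48 against -0.08 in WT with TMM, and the symbols meet near 0 under quantile normalisation.

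Genes of neighbouring pathways that passed the test were mostly higher in LK as well, on the TMM scale, and these lists were not run under the other scalings. Of 13 TCA cycle genes 9 were called higher in WT LK and 8 in Ripk3-KO LK, and 0 were called lower, with Cs, citrate synthase, at a log2 fold change of 1.49 in WT (adjusted p = 1.59e-06). Of 16 electron carriers 8 and 6 were called higher, and Cycs rose by 0.87 in WT and 2.13 in Ripk3-KO. Of 16 glycolysis genes 9 were called higher in each genotype, and 1 and 2 lower. Dlat and Pdhb of the pyruvate dehydrogenase complex rose by 1.37 and 0.83 in WT, and Nrf1, a transcription factor of nuclear OXPHOS genes, by 0.74 (adjusted p = 0.0235). Of 21 assembly factors tested in WT 6 were called higher, and 4 of 11 biogenesis regulators. In Ripk3-KO, 3 of 22 assembly factors were called higher and 1 lower, with a median of 0.05, and 3 of 11 regulators were called higher. Beside every list here, the share of all genes called higher was 14.8% in WT and 12.2% in Ripk3-KO. The mitochondrial gene mt-Nd4 went the other way (log2 fold change -0.60 in WT, adjusted p = 0.043 by limma). It was at 1144 and 1137 CPM in WT LSK and 627 and 903 CPM in WT LK. In Ripk3-KO it was at 1068 and 1932 CPM in LSK and 1020 and 830 CPM in LK (-0.64, adjusted p = 0.0333 by limma). There, replicate 1 of LSK lay close to replicate 1 of LK.

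Promoter sequences are described because many members were called in one direction between populations. RefSeq start-site windows (250 bases before to 50 after the start, GRCm38.p6) were found for 71 of the 91 members. The NRF1 motif GCGCANGCG occurred on either strand in 21 of the 71 (29.6%) and in 7.03% of all 27025 genes with such a window. The ETS motif CCGGAAG was present in 23.9% against 9.93%, the YY1 motif AAGATGGCG in 9.86% against 1.64%, the SP1 motif GGGCGG in 43.7% against 38.2% and the ERR motif TCAAGGTCA in 2.82% against 0.466%. Of members with the NRF1 motif, 8 of 20 tested were called higher in WT LK, and of those without it 15 of 48, against 14.8% of all genes tested. In Ripk3-KO LK the counts were 8 of 20 and 8 of 46, against 12.2% of all genes tested, and the difference between members with and without the motif was not tested. The windows of the c-subunit genes and of Sdha, which was called in both genotypes under all 5 settings, are printed from 120 bases before to 30 after the start, with NRF1 matches in capitals.
Atp5g1, chr11:96075602-96075751, minus strand: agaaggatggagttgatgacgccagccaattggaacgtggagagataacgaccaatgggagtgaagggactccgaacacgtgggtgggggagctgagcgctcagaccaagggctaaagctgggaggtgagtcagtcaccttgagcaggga
Atp5g2, chr15:102671018-102671167, minus strand: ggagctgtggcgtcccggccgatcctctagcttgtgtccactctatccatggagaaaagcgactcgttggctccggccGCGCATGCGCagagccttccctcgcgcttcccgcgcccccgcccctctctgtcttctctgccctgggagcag
Atp5g3, chr2:73911297-73911446, minus strand: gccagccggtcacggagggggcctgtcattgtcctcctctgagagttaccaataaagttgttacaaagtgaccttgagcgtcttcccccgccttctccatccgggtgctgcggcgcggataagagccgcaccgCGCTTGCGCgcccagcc
Sdha, chr13:74350211-74350360, minus strand: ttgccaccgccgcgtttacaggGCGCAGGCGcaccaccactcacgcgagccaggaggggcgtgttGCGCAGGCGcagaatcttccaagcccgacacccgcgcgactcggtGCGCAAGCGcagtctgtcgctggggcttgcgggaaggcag
The window of Sdha holds 3 separate matches, that of Atp5g3 holds 1, that of Atp5g2 holds 2 overlapping matches on opposite strands, and that of Atp5g1 holds none in these letters. A match is a description of the sequence only.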

How the data were processed

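The 8 libraries were made with a stranded mRNA kit, and the submitters' processing notes name TopHat and mm9 without versions. As the authors deposited them, the signal values are headed FPKM, but in every library 100% of the values were whole multiples (within 0.01) of 1 step shared by all genes, so they are CPM scaled by TMM factors, computed separately within LSK and within LK, and not divided by length. The planned genotype tests expected values of this kind, from an earlier look at these data. Reads were recovered by division by the step. For LK against LSK, reads were rescaled by TMM over all 8 libraries.

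The main test was limma 3.58.1 (lmFit and eBayes with a trend, in R 4.3.3) on log2(value + 1), with 4 group means over 8 libraries, keeping genes whose mean over the contrast's libraries reached 1. Fold changes are on that scale, which understates changes of low genes, and all tests were two-sided with Benjamini-Hochberg adjustment over all genes tested at 0.05. Alternatives were pseudocount 0.1, the filter dropped or raised to 5, edgeR 4.0.16 and DESeq2 1.42.0 on recovered reads, quantile normalisation, the deposited scale, removal of GC and length trends, a replicate block, a separate fit of each population, subunits alone, and leaving out each library. The limma fit was tested on simulated data.

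Lengths and positions came from GENCODE M21 (GRCm38), which matched 22193 of the 29955 names and all 91 members. One transcript per gene was used, preferring protein-coding ones paired with a RefSeq entry. BLAST searched 13607 annotated pseudogene transcripts for stretches of 200 bases or more at 90% identity or higher. Replicates differed by more than counting error (chi-square per degree of freedom 20.8 to 28.9, r of log2 values 0.962 to 0.980). The members and gene lists were chosen with earlier results of these data known. Named genes are, per contrast, members with an adjusted p under 0.05 (up to 20), the 2 with the largest fold change in each complex, fixed anchor subunits, members at 0, and neighbours from fixed lists. One member that this rule names is not reported here. Ndufs7, Ndufs8, Uqcr10, Cox5b in LSK, Atp5c1 and Atp5a1 beside their values, Cs, Nrf1 and the sequences shown were singled out after their values were seen, as was the grouping by pseudogenes.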

Additional observations from a re-analysis of the deposited data

How the results depend on the processing

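Atp5g1 was the only member called in LSK under the main and every other planned setting run there, leaving out each library included, except that DESeq2 and quantile normalisation called 4 and 3 members. The alternative of leaving out members with a near-identical pseudogene was added after seeing the data, and 10 were then called in Ripk3-KO LK against LSK. In LSK it gave 0, a count fixed beforehand because it takes out Atp5g1, the only member called by limma. DESeq2 and quantile normalisation called 1 member in the interaction. With no filter on low values 19 and 13 members were called for LK against LSK in WT and Ripk3-KO, with quantile normalisation 6 and 11 and on the deposited scale 9 and 9. With GC and length trends removed more were called, 44 and 31.

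Leaving out single libraries gave 11 to 32 calls for LK against LSK in WT, 5 to 21 in Ripk3-KO, 1 to 1 in LSK, and 0 to 0 in LK and in the interaction, where the lone library left in a group is assumed to vary like those of the other groups. The members' median ran from 0.297 to 0.623 and from 0.264 to 0.369 for LK against LSK in WT and Ripk3-KO. The same ranges by complex follow where a library moved the median beyond the SD. For genotype in LSK, complex III ran from -0.111 to 0.217, and complexes I and IV, within the SD, from -0.0308 to 0.195 and from -0.19 to 0.0757. For genotype in LK, complex I ran from -0.32 to -0.138, complex III ran from -0.262 to -0.125. For the interaction, complex IV ran from -0.0912 to 0.218. For LK against LSK in WT, complex I ran from 0.339 to 0.603, complex IV ran from 0.27 to 0.586, complex V ran from 0.219 to 0.651. For LK against LSK in Ripk3-KO, complex III ran from 0.322 to 0.428, complex IV ran from 0.141 to 0.505, complex V ran from 0.495 to 0.582.

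The medians that moved by more than the SD of the library medians were as follows. With GC and length trend removed, for genotype in LK, the median was -0.105 (complex I), 0.00875 (complex IV), -0.0211 (complex V). With GC and length trend removed, for LK against LSK in Ripk3-KO, the median was 0.377 (complex III). With quantile normalization, for genotype in LK, the median was -0.0267 (complex III), -0.0509 (complex V). With quantile normalization, for the interaction, the median was 0.141 (complex II), 0.246 (complex III). With quantile normalization, for LK against LSK in WT, the median was -0.00451 (all members), -0.00215 (complex I), 0.214 (complex II), 0.0700 (complex III), -0.0177 (complex IV), -0.0435 (complex V). With quantile normalization, for LK against LSK in Ripk3-KO, the median was -0.000666 (all members), -0.119 (complex I), 0.0507 (complex II), 0.0422 (complex III), 0.0273 (complex IV), 0.200 (complex V). On the deposited scale, for LK against LSK in WT, the median was 0.107 (all members), 0.121 (complex I), 0.365 (complex II), 0.226 (complex III), 0.0265 (complex IV), 0.0306 (complex V). On the deposited scale, for LK against LSK in Ripk3-KO, the median was -0.0578 (all members), -0.116 (complex I), 0.063 (complex II), 0.0119 (complex III), -0.0968 (complex IV), 0.2 (complex V). With no filter on low values, for LK against LSK in Ripk3-KO, the median was 0.366 (complex III). With a mean of at least 5, for LK against LSK in Ripk3-KO, the median was 0.402 (complex III). With edgeR quasi-likelihood test of recovered reads, for LK against LSK in Ripk3-KO, the median was 0.315 (complex III), 0.505 (complex V). With DESeq2 on recovered reads, for LK against LSK in Ripk3-KO, the median was 0.33 (complex III).

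The sign changed for Sdhc between genotypes in LSK (-0.017 with quantile normalisation) and for Cox7a1 in the interaction (0.064 with quantile normalisation). Deviations of same-numbered libraries correlated between -0.152 and 0.0234 over 10700 genes, which gave no sign that the replicate numbers pair the samples. These correlations cannot tell whether LSK and LK cells came from the same mice, since the numbers may be crossed between populations. A replicate block gave 1 call in LSK, 0 in LK, 0 in the interaction and 28 and 20 for LK against LSK, and LSK and LK taken as pairs gave 20 and 16. The causes of these changes were not tested. With 2 libraries a group, the depth and spread limit calls to large changes.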
